A study of Mus musculus with 12 samples.

Results

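The glutathione system of the liver was described here through 39 genes, taken by symbol from a fixed list of glutathione transferases, glutathione peroxidases, the enzymes that make and recycle glutathione, and the glyoxalases. All 39 were found among the 55367 distinct symbols of the deposited expression table, each in a single row. Livers were taken from 6-week-old Balb/c wild-type animals, giving 6 control libraries (control 3 to control 8) and 6 libraries from mice with severe acute pancreatitis (SAP 10 to SAP 15). Per the labels the SAP mice had received caerulein, a cholecystokinin analogue that overstimulates the exocrine pancreas, and the controls are labelled only as control. The dose, the time of sampling and whether each library is a separate animal are not stated in the labels, so every p-value reflects only library-to-library spread, which may be technical. The design text speaks of a pair of mouse models, while the sample labels give 1 strain and 1 treatment.

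Glutathione is a tripeptide that hepatocytes hold at high concentration. Glutathione transferases (GSTs) couple it to electrophilic drugs and lipid breakdown products, peroxidases use it to reduce hydrogen peroxide and lipid hydroperoxides, and glutathione reductase returns the oxidised form with electrons from NADPH. Glutamate-cysteine ligase, a dimer of a catalytic and a modifier subunit, sets the rate of its synthesis, and the transcription factor NRF2 is known to drive many of these genes through antioxidant response elements.

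Levels are given as TPM, a transcript abundance scaled for length and to a common total, so levels of different genes can be set side by side. A gene was tested when at least 6 of the 12 libraries reached 1 TPM. Of the 39 genes, 35 were tested and 4 were not: the omega transferase Gsto2 (at most 1.07 TPM), the microsomal transferase Mgst2 (0.53 TPM), the peroxidase Gpx6 (0.28 TPM) and the gamma-glutamyl transferase Ggt1 (0.19 TPM). Gsta1 and Gstm3 were above the limit in all 6 controls but only in 1 and 4 of the SAP libraries, so their place among the tested genes rests mainly on the controls. Gpx8 reached it in 2 controls and 5 SAP libraries.

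Hepatocyte markers were abundant in every library, with a summed level of 82959 to 94903 TPM in controls and 53592 to 61484 TPM in SAP. The 8 genes of this sum went different ways. Alb (log2 change -1.24), Ttr (-1.23), Serpina1a (-1.48) and Tat (-1.49) fell. Fgb, which is also in the acute phase list, rose from a mean of 2203 to 12448 TPM, and Apoa1 rose by 0.24. Apob (0.14) and Hnf4a (0.18) were not past the threshold. The 9 pancreatic acinar markers summed to at most 12.1 TPM in any library. Neutrophil markers summed to 5.45 to 21.4 TPM in controls and 37.6 to 113 TPM in SAP, and monocyte and macrophage markers to 43.1 to 64.1 TPM and 61.2 to 97.9 TPM. S100a8 and S100a9 (means of 25.8 and 46.8 TPM in SAP) made up most of the neutrophil sum. Only 4 of its 13 genes were tested, and Camp and Ltf, below the limit, had lower means in SAP. In the monocyte and macrophage list Itgam, Plac8 and Fcgr1 rose, while Lyz2 fell from a mean of 38.3 to 27.7 TPM. Erythroid markers fell, from 607 to 5292 TPM in controls to 341 to 716 TPM in SAP. In bulk tissue, fewer cells of a type and less RNA per cell cannot be told apart. Acute phase transcripts took 2.64 to 3.05% of all TPM in controls and 20.2 to 34.4% in SAP, with the highest share in SAP 14. Because TPM add up to a fixed total, the test was repeated with the 25 acute phase genes left out of the total, which moved the median log2 change over all tested genes from -0.03 to 0.30. The nuclear RNA Xist, below 30 TPM in control 5, SAP 11, SAP 13, SAP 14 and SAP 15 and above it in the other 7 libraries, marked a split that ran across the groups and was also fitted as a term.

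In SAP livers the transcripts of most glutathione transferases fell, those of glutathione synthesis and recycling fell by less than 1 on the log2 scale or were not past the threshold, and a few genes stood at or above their control level. Of the 35 tested genes, 25 fell and 2 rose (limma, Benjamini-Hochberg adjusted p under 0.05), while 25.0% of the 11335 genes tested fell and 19.5% rose, 44.5% in either direction. The 2 that rose were the secreted peroxidase Gpx3 and the pi-class transferase Gstp3. A fall of at least 1 on the log2 scale was passed by 16 of the 35, against 5.43% of all genes tested, and 13 of these 16 passed it under every alternative in which they were tested. SAP and control values did not overlap for 22 of the 35, against 25.6% of all genes tested. Gsta1 and Gstm3, which were tested mainly through their control levels, are among the 25, the 16 and the 22. With the acute phase genes left out of the total, 19 fell and 9 rose, where the background was 11.3% and 53.2%, 64.4% in either direction. Quantile normalization gave 22 that fell and 6 that rose, where 22.9% of all genes fell and 26.0% rose (48.9% in either direction). Scaling factors computed in the manner of TMM gave 24 that fell and 4 that rose, where 24.5% fell and 24.1% rose (48.6% in either direction).

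**Figure D1:**
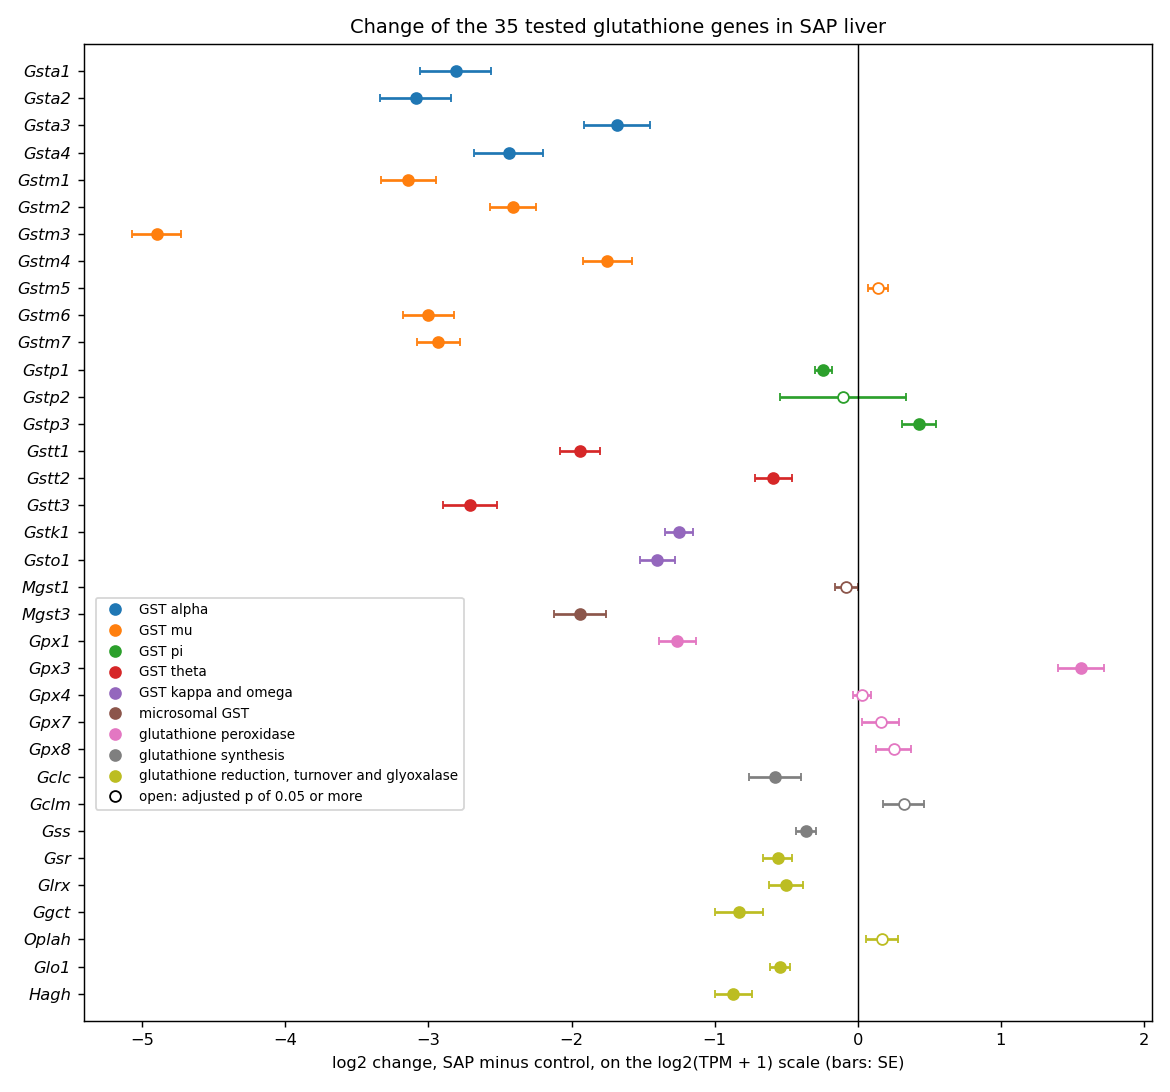
Log2 change of each of the 35 tested glutathione genes, SAP minus control, on the log2(TPM + 1) scale, with bars of 1 SE from limma and colours for the enzyme class. Filled points passed an adjusted p of 0.05; the alpha, mu and theta transferases lie between -4.90 (Gstm3) and -0.59 (Gstt2), apart from Gstm5 at 0.14, and Gpx3 lies furthest to the right at 1.56.

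The alpha class, cytosolic transferases that are abundant in hepatocytes, fell in all 4 of its genes, with a median log2 change of -2.63. Gsta3, its main transcript, had a control level of 2046 to 2502 TPM (median 2398) and a SAP level of 342 to 1031 TPM (median 914). All 6 SAP libraries lay below all 6 controls, with SAP 14 lowest, and the log2 change was -1.68 with an SE of 0.23 (adjusted p in limma, 5.45e-05). Gsta4, which has a preference for the lipid aldehyde hydroxynonenal, was at 129 to 173 TPM in controls and 12.1 to 41.2 TPM in SAP, a log2 change of -2.44. Gsta2 had the largest log2 change of the class on the log2(TPM + 1) scale, from 36.2 to 73.3 TPM (median 50.7) to 3.50 to 11.0 TPM (median 4.39), a log2 change of -3.09 with an SE of 0.25 (adjusted p in limma, 6.81e-07). Gsta1 stood at 5.23 to 17.5 TPM in controls and at 0 to 1.02 TPM in SAP, a log2 change of -2.81. With a pseudocount of 0.1 the order of these 2 genes was the other way round, at -4.44 for Gsta1 and -3.30 for Gsta2. The transcripts of Gsta1 and Gsta2 are 97.2% identical over 870 aligned bases in GENCODE M21, and no source used here says how reads shared by near-identical genes were assigned, so the split between them is uncertain. Within the class Gsta3 fell less than Gsta4: the log2 ratio of Gsta3 to Gsta4 went from 4.01 ± 0.17 to 4.82 ± 0.20 (mean ± SD of 6; two-sided exact permutation p = 0.00216, adjusted p = 0.00346 over 8 gene pairs).

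The mu class divided into 6 genes that fell and 1 that was not past the threshold. Gstm1, its main liver form, had 1671 to 2043 TPM in controls (median 1774) and 120.2 to 301 TPM in SAP (median 215), so that the mean SAP level was 11.8% of the control mean. The groups were far apart, and the log2 change was -3.14 with an SE of 0.19 (adjusted p in limma, 5.26e-08). Gstm3 changed most of all 39 genes, from 47.8 to 79.2 TPM (median 65.7) to 0.520 to 2.07 TPM (median 1.21), which is 1.88% of the control mean. Its log2 change was -4.90 with an SE of 0.17 (adjusted p in limma, 7.58e-10), and -5.70 with a pseudocount of 0.1. Gstm2 went from 283 to 425 TPM (median 367) to 51.4 to 95.9 TPM (median 60.3), a log2 change of -2.41 with an SE of 0.16 (adjusted p in limma, 1.18e-07). Gstm6 (mean 197 to 24.5 TPM), Gstm7 (112 to 14.2 TPM) and Gstm4 (78.1 to 23.4 TPM) fell as well, all without overlap between the groups. Gstm5 stood apart at 17.6 to 22.8 TPM in controls and 20.3 to 24.9 TPM in SAP, overlapping ranges with a log2 change of 0.14 (95% interval -0.02 to 0.30; limma adjusted p = 0.153). With the acute phase genes left out of the total Gstm5 was 0.51 higher in SAP (limma adjusted p = 0.000179), beside a shift of 0.33 in the median of all genes.

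The 7 mu genes lie together on chromosome 3. In GENCODE M21 on GRCm38 they run in the order Gstm5 (107895821 to 107898686), Gstm7 (107926334 to 107931817), Gstm6 (107938847 to 107943749), Gstm3 (107963696 to 107969283), Gstm2 (107981702 to 107986453), Gstm1 (108012255 to 108017973) and Gstm4 (108040408 to 108044894). Gstm5 is at the end of the row and is the only one on the forward strand. No source used here names the build behind the deposited values, so these positions serve as annotation. Transcripts of the mu class were between 70.9% (Gstm5 and Gstm6) and 87.1% (Gstm1 and Gstm2) identical over their aligned stretches.

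The summed level of the pi class was 854 to 1037 TPM in controls and 811 to 921 TPM in SAP. Gstp1, which carries most of it, was at 746 to 889 TPM in controls (median 803) and 645 to 775 TPM in SAP (median 677). The ranges overlapped, and the log2 change of -0.24 with an SE of 0.06 (adjusted p in limma, 0.00771) lost its call with TMM-like scaling (-0.19, adjusted p = 0.0645) and turned to 0.15 (adjusted p = 0.0798) with the acute phase genes left out of the total. Gstp3 had 88.8 to 142 TPM in controls (median 98.2) and 113 to 171 TPM in SAP (median 141). It rose by 0.43 ± 0.12 (SE; limma adjusted p = 0.0107), with overlap because control 5 was at 142 TPM, and missed the threshold once the Xist split entered the model (0.34, adjusted p = 0.0624). Gstp2 varied within both groups, from 6.02 to 18.4 TPM in controls and from 3.35 to 24.7 TPM in SAP, with a 95% interval of the log2 difference of -1.05 to 0.85 (limma adjusted p = 0.881). Its transcript is 94.5% identical to that of Gstp1 over 785 bases, so the split between them is uncertain. The leading mu and pi genes were also compared directly, which covers these genes and not their whole classes. The log2 ratio of Gstm1 to Gstp1 was between 0.93 and 1.45 in controls and between -2.53 and -1.35 in SAP. The difference was -2.91 (two-sided exact permutation p = 0.00216, adjusted p = 0.00346). A ratio of this kind is taken within a library and is not altered by a single scaling factor per library, though quantile normalization can alter it.

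Theta transferases, which act on small halogenated molecules, fell in all 3 genes. Gstt1 went from 365 to 426 TPM (median 398) to 69.4 to 148 TPM (median 103), with no overlap and a log2 change of -1.94 with an SE of 0.14 (adjusted p in limma, 2.93e-07). Gstt3 went from 107 to 153 TPM (median 118) to 10.3 to 28.5 TPM (median 17.6), a log2 change of -2.71 with an SE of 0.19 (adjusted p in limma, 2.32e-07). Gstt2 was the least changed, from 81.9 to 120.2 TPM to 51.2 to 85.7 TPM (-0.59), with overlapping ranges, and its call was lost with the acute phase genes left out of the total (-0.21, adjusted p = 0.133). The kappa transferase Gstk1, an enzyme of mitochondria and peroxisomes, went from 209 to 242 TPM (median 228) to 73.9 to 118 TPM (median 96.6), a log2 change of -1.25 with an SE of 0.10 (adjusted p in limma, 7.20e-07). Gsto1, an omega-class thiol transferase and dehydroascorbate reductase, went from 77.6 to 107 TPM (median 90.2) to 25.7 to 40.1 TPM (median 35.4), a log2 change of -1.40 with an SE of 0.12 (adjusted p in limma, 8.96e-07). Neither of these 2 genes had overlapping groups.

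The 2 microsomal transferases that were tested, membrane proteins unrelated in fold to the cytosolic GSTs, differed from each other. Mgst1 was the most abundant of the 39 transcripts, at 4315 to 5003 TPM in controls (median 4759) and 3871 to 4999 TPM in SAP (median 4546). The ranges overlapped, though SAP 10 (3890 TPM), SAP 11 (4214 TPM) and SAP 14 (3871 TPM) lay below the lowest control. The log2 change was -0.08 (95% interval -0.26 to 0.11; limma adjusted p = 0.492). Its direction depended on scaling, at -0.44 (adjusted p = 0.000135) with quantile normalization and 0.31 (adjusted p = 0.00137) with the acute phase genes left out of the total. Mgst3 went from 33.0 to 48.2 TPM (median 41.7) to 5.64 to 14.1 TPM (median 10.4), a log2 change of -1.94 with an SE of 0.18 (adjusted p in limma, 2.28e-06), with no overlap. The log2 ratio of Gstm1 to Mgst1 fell by 3.07, from -1.36 ± 0.11 to -4.43 ± 0.34 (mean ± SD of 6; two-sided exact permutation p = 0.00216, adjusted p = 0.00346).

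Together the 23 transferases summed to 11417 to 12519 TPM in controls and 5548 to 7891 TPM in SAP. Their make-up differed between the groups. Mgst1 made up 39.6 ± 1.72% of the transferase sum in controls and 65.5 ± 2.35% in SAP (mean ± SD of 6 libraries), while the mu class went from 22.5 ± 1.41% to 5.32 ± 0.777% and the alpha class from 21.6 ± 1.34% to 11.7 ± 3.01%. The pi class went from 7.93 ± 0.816% to 12.6 ± 1.77%. These sums were formed from genes whose changes were known and are given without a test.

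**Figure D2:**
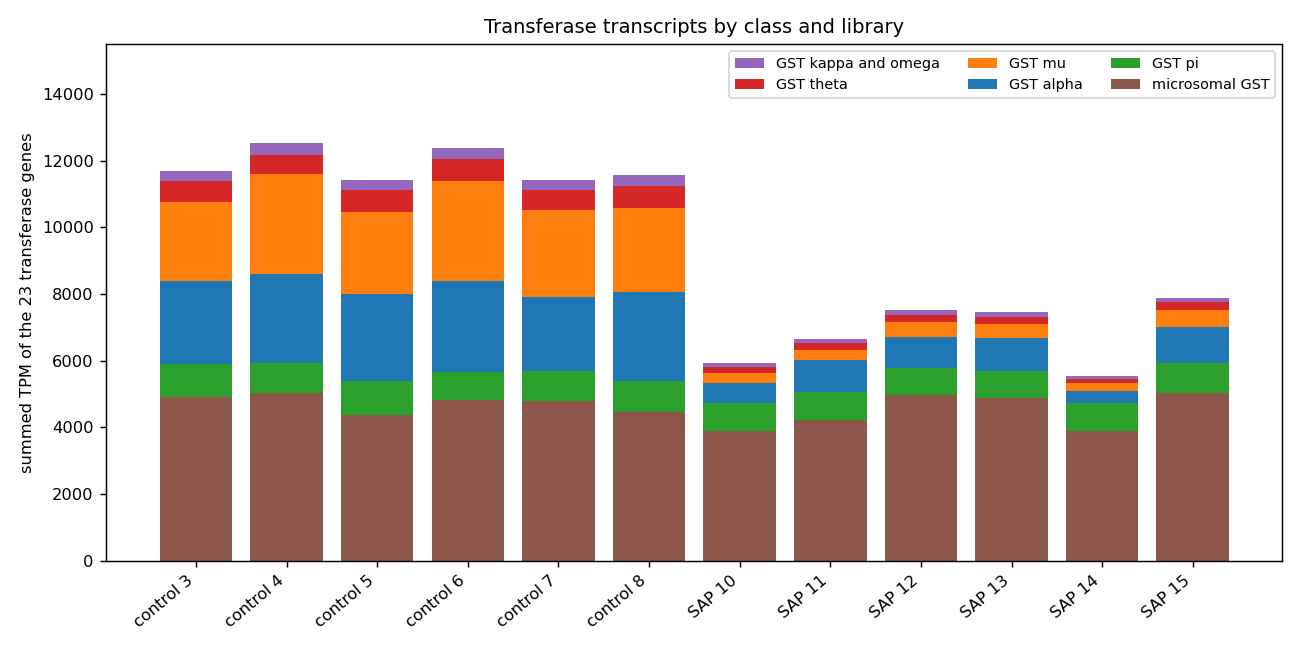
Stacked bars of the summed TPM of the 23 transferase genes in each of the 12 libraries, coloured by class, with the axis starting at 0. The microsomal part is of similar height in all libraries, while the mu part shrinks from 2389 to 2986 TPM in controls to 235 to 496 TPM in SAP.

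Glutathione peroxidases moved apart. Gpx1, the abundant selenium-dependent enzyme of the cytosol and mitochondria, had 2834 to 3419 TPM in controls (median 3259) and 903 to 1796 TPM in SAP (median 1415), without overlap, a log2 change of -1.26 with an SE of 0.13 (adjusted p in limma, 7.76e-06). The erythroid markers were lower in SAP as well, at 341 to 716 TPM against 607 to 5292 TPM in controls, with control 5 at 607 TPM of these markers and 3259 TPM of Gpx1. Their part in the result was not tested. Gpx4, which reduces lipid hydroperoxides in membranes, was at 401 to 445 TPM in controls (median 416) and 384 to 478 TPM in SAP (median 427). Its ranges overlapped and the log2 change was 0.03 (95% interval -0.10 to 0.16; limma adjusted p = 0.736). It was 0.30 higher with quantile normalization (adjusted p = 0.000265) and 0.42 higher with the acute phase genes left out of the total (adjusted p = 9.40e-06). The log2 ratio of Gpx1 to Gpx4 fell by 1.28, from 2.71 to 3.06 in controls to 1.24 to 2.02 in SAP (two-sided exact permutation p = 0.00216, adjusted p = 0.00346).

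Gpx3, the secreted plasma peroxidase that is made mainly in kidney, rose from a low level. It stood at 3.66 to 6.07 TPM in controls (median 4.68) and 11.0 to 21.4 TPM in SAP (median 14.6), a log2 change of 1.56 with an SE of 0.16 (adjusted p in limma, 4.19e-06). Every SAP library was above every control, and the SAP mean was 342% of the control mean. Gpx7 and Gpx8, peroxidases of the endoplasmic reticulum, were near the detection limit at 1.48 to 3.28 TPM and 0.630 to 1.81 TPM over the 12 libraries and were not past the threshold (limma adjusted p = 0.331 and 0.103). With the acute phase genes left out of the total both passed it, at 0.45 (adjusted p = 0.0119) and 0.48 (adjusted p = 0.00393).

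**Figure D3:**
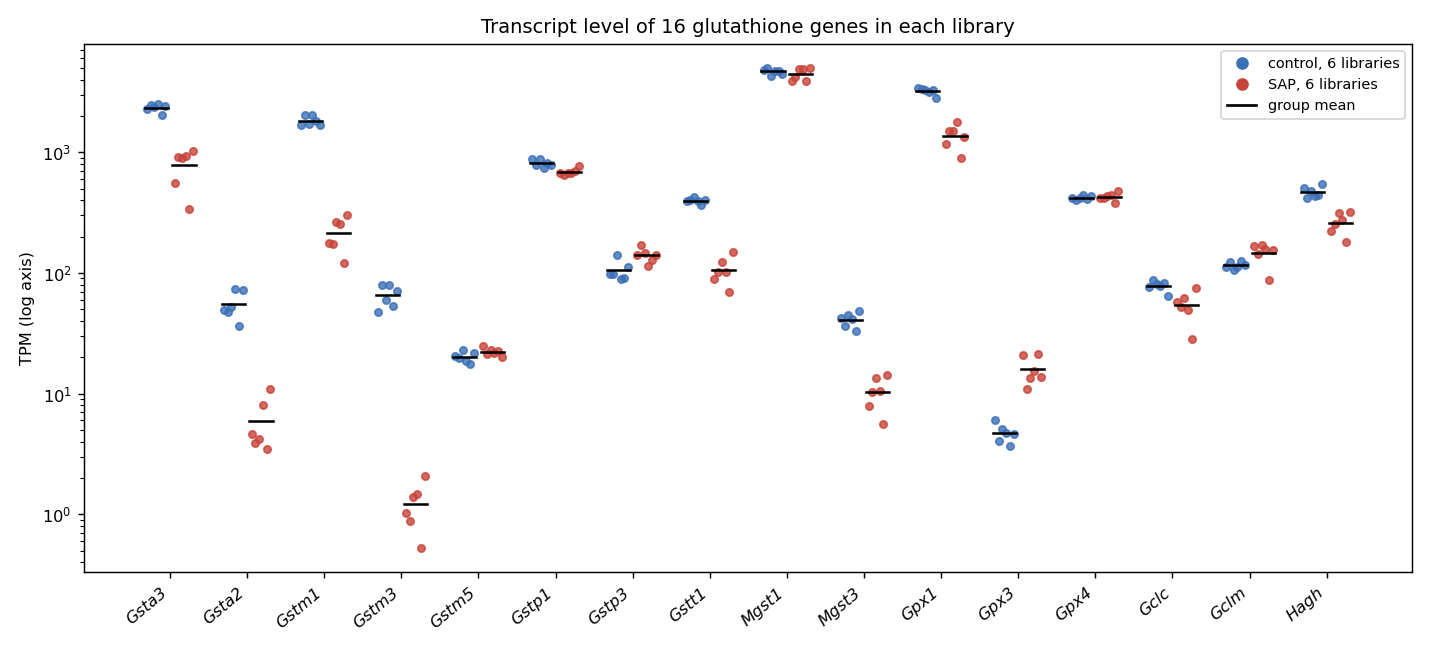
TPM on a log axis of 16 glutathione genes in each library, with 6 control and 6 SAP points per gene and a bar at each group mean. Gstm3 drops furthest, Gpx3 rises, and Mgst1, Gpx4 and Gstm5 have overlapping groups.

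The subunits of glutamate-cysteine ligase parted in SAP. Gclc, the catalytic subunit, had 64.8 to 88.2 TPM in controls (median 79.8) and 28.4 to 75.3 TPM in SAP (median 54.9). It fell by 0.58 ± 0.18 (SE; limma adjusted p = 0.0171) with overlapping ranges, and lost the call once the Xist split entered the model (-0.50, adjusted p = 0.0756), with quantile normalization (-0.36, adjusted p = 0.0689) and with the acute phase genes left out (-0.20, adjusted p = 0.259). Gclm, the modifier subunit that raises the affinity of the enzyme for glutamate, had 106 to 125 TPM in controls (median 114) and 87.8 to 172 TPM in SAP (median 157). In 5 of the 6 SAP libraries it was above every control, and in SAP 14 it was below every control, so the log2 change of 0.32 ± 0.14 (SE) was not past the threshold (limma adjusted p = 0.0774). Without SAP 14 Gclm was 0.46 higher (limma adjusted p = 8.34e-05), and it also passed with TMM-like scaling (0.37, adjusted p = 0.0132) and once the Xist split entered the model (0.45, adjusted p = 0.0262). Between the subunits, the log2 ratio of Gclc to Gclm was between -0.85 and -0.38 in controls and between -1.69 and -1.04 in SAP, with SAP 14 at -1.63. It fell by 0.91 (two-sided exact permutation p = 0.00216, adjusted p = 0.00346), which is a ratio of catalytic to modifier transcripts of 0.678 in controls and 0.360 in SAP.

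Gss, glutathione synthetase, which completes the tripeptide, went from 58.0 to 69.0 TPM in controls to 45.1 to 55.2 TPM in SAP, a log2 change of -0.36 with an SE of 0.07 (adjusted p in limma, 0.00111). The groups did not overlap, but with the acute phase genes left out of the total the change was 0.03 (adjusted p = 0.734). The log2 ratio of Gclc to Gss differed by -0.23 (-0.08 without SAP 14), which did not exceed the spread between libraries (two-sided exact permutation p = 0.277, adjusted p = 0.317).

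**Figure D4:**
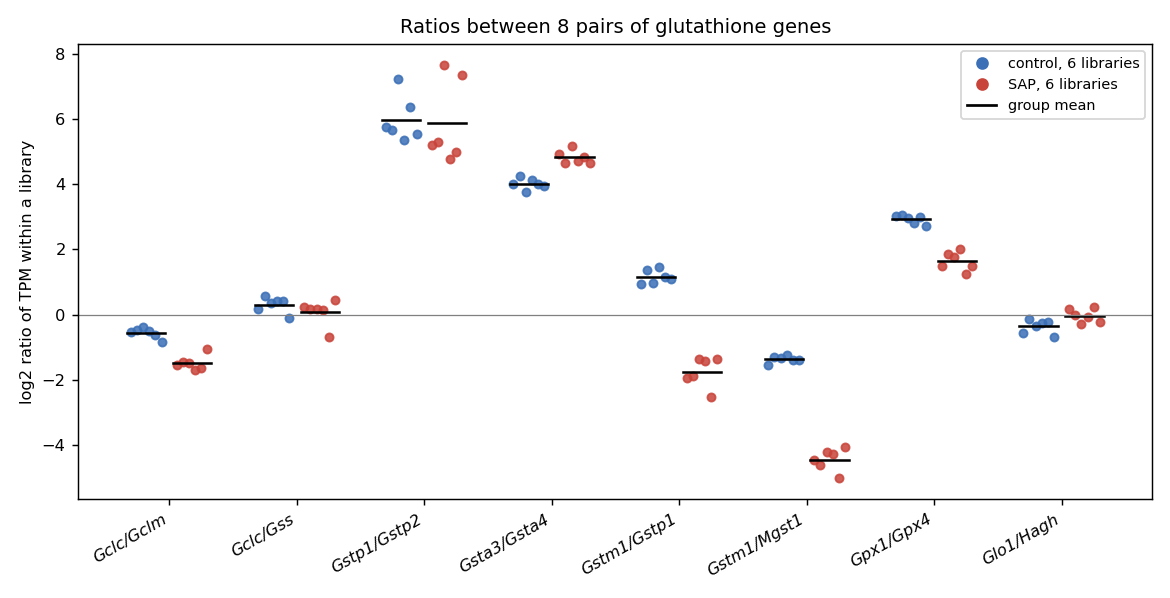
Log2 ratio of TPM within each library for 8 pairs of glutathione genes, with 6 control and 6 SAP points per pair and a bar at each group mean. The groups do not overlap for Gclc/Gclm, Gsta3/Gsta4, Gstm1/Gstp1, Gstm1/Mgst1 and Gpx1/Gpx4, and overlap for Gclc/Gss, Gstp1/Gstp2 and Glo1/Hagh.

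Among the genes that recycle and break down glutathione, 3 fell and 1 was not past the threshold. Gsr, glutathione reductase, went from 48.7 to 53.8 TPM to 25.0 to 42.1 TPM (-0.56), and the thiol oxidoreductase glutaredoxin, Glrx, from 103 to 117 TPM to 60.1 to 103 TPM (-0.50). Ggct, gamma-glutamylcyclotransferase, went from 8.02 to 14.1 TPM to 3.98 to 8.62 TPM (-0.83). Oplah, which opens the oxoproline that Ggct releases, was at 30.7 to 40.8 TPM in controls and 34.2 to 52.8 TPM in SAP, a log2 difference of 0.17 (95% interval -0.06 to 0.40; limma adjusted p = 0.219). It passed once the Xist split entered the model (0.36, adjusted p = 0.00264) and with TMM-like scaling (0.22, adjusted p = 0.0491), while Gsr (-0.18, adjusted p = 0.0736) and Glrx (-0.12, adjusted p = 0.287) lost theirs with the acute phase genes left out of the total.

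The glyoxalases use glutathione to turn the glycolytic by-product methylglyoxal into lactate, and both fell. Glo1, the first enzyme, went from 338 to 383 TPM (median 375) to 213 to 276 TPM (median 257), a log2 change of -0.54 with an SE of 0.07 (adjusted p in limma, 3.13e-05). Hagh, the second, went from 415 to 550.1 TPM (median 463) to 181 to 319 TPM (median 265), a log2 change of -0.87 with an SE of 0.13 (adjusted p in limma, 0.000115). Neither gene had overlapping groups. The log2 ratio of Glo1 to Hagh was 0.34 higher in SAP (two-sided exact permutation p = 0.0216, adjusted p = 0.0289), with overlapping groups, and its adjusted p was between 0.0519 and 0.0577 when control 3, control 5, control 8, SAP 10, SAP 11, SAP 13 or SAP 14 was left out, with differences of 0.27 to 0.35.

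The antioxidant response element core, TGACNNNGC, was searched on both strands in the 250 bases before the RefSeq transcription start (GRCm38.p6) of the 34 glutathione genes for which a promoter sequence was at hand. It occurred in 5 of them (14.7%) and in 10.2% of all 32851 promoter windows: Gsta3, Gstm5, Gclm, Ggct and Mgst1. Their log2 changes were -1.68, 0.14, 0.32, -0.83 and -0.08, in that order. For 4 of them the stretch up to the first annotated exon is shown 5′ to 3′ on the strand of the gene, with the match in capitals; it reads in the forward direction in Gsta3 and Gstm5 and on the other strand in Gclm and Ggct. The windows lie at chr1:21240335-21240584 (forward strand), chr3:107895604-107895820 (forward), chr3:122245307-122245556 (forward) and chr6:54992951-54993117 (reverse).
Gsta3: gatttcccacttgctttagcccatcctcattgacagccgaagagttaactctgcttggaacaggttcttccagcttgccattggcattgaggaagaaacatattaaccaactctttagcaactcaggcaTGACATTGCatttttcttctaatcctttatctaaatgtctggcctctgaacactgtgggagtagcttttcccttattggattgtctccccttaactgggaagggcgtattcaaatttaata
Gstm5: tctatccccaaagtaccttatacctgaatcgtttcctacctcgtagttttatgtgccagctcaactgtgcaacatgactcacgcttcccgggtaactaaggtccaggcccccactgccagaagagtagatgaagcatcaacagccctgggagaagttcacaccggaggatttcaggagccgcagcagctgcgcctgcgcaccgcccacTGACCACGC
Gclm: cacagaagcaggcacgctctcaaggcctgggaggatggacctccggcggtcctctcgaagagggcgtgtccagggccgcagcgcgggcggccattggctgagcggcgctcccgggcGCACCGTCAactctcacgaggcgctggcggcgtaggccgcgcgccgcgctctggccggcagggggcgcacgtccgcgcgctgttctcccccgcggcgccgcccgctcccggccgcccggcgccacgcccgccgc
Ggct: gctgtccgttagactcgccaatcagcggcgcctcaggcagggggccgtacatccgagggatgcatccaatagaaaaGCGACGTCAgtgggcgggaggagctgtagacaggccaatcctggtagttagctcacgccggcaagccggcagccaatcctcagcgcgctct
Among the genes with a match, Gsta3 and Ggct fell, and Gstm5, Gclm and Mgst1 were not past the threshold. A link between the match and the change was not tested. A match describes letters in this window and nothing about binding, and elements further upstream were not searched.

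Nfe2l2, which encodes NRF2, fell by 0.38 (limma adjusted p = 0.023), but the change was -0.00 (adjusted p = 0.987) with the acute phase genes left out of the total. It also missed the threshold once the Xist split entered the model (-0.32, adjusted p = 0.095), in the high-Xist libraries alone (-0.16, adjusted p = 0.297), without control 7 (-0.34, adjusted p = 0.0527), without SAP 14 and control 5 (-0.25, adjusted p = 0.053) and with no filter on low genes (-0.38, adjusted p = 0.0516). In the list of 11 NRF2 regulators and targets 4 fell, 3 rose and the other 4 missed the threshold, with a median log2 change of -0.00, beside 25.0% lower and 19.5% higher over all genes. Hmox1, haem oxygenase, rose from 14.8 to 17.4 TPM in controls to 24.4 to 35.9 TPM (log2 change 0.94), and the epoxide hydrolase gene Ephx1 fell from 234 to 298 TPM to 55.0 to 122 TPM (-1.54). The targets thus went both ways, with Nqo1 at -1.17, Akr1b8 at 0.51 and Osgin1 at 1.35, which were chosen after their values were seen. With the acute phase genes left out of the total, 6 of the 11 rose and 3 fell, where 53.2% of all genes rose and 11.3% fell.

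The lists of genes around the glutathione system are given by their counts, beside the background of 25.0% lower and 19.5% higher. The thioredoxin and peroxiredoxin list covers the parallel thiol system and also holds Sod1, Sod2 and Cat, which are not thiol enzymes. In it 10 of 15 tested genes fell and 1 rose. Txnip (-1.96), which encodes an inhibitor of thioredoxin, and Txnrd2 (-0.72) had the smallest adjusted p of the list. Mitochondrial Sod2 (0.67) was the gene that rose. Of the 9 genes that supply NADPH 7 fell and 1 rose, the isocitrate dehydrogenase gene Idh2 by 0.73 and the transketolase gene Tkt by 1.13. The list drawn up for cysteine supply had 5 of 10 tested genes lower and 2 higher. It also holds genes that do not supply cysteine, among them the 2 that rose. These were the glycine transporter gene Slc6a9 (0.41) and Csad (0.76), which acts in taurine synthesis. Gnmt, a glycine methyltransferase, fell from 2106 to 3398 TPM to 479.9 to 816 TPM (log2 change -2.09), and Cth, which makes cysteine from cystathionine, from 300.1 to 479 TPM to 53.3 to 154 TPM (-1.94). Transporters of glutathione and its conjugates had 6 of 9 tested genes lower and 0 higher, among them the export pump gene Abcc3 (-0.98) and the mitochondrial carrier gene Slc25a10 (-0.87). Of the 5 tested peptidases and acylases that process conjugates 3 fell and 1 rose, with Acy1 at -1.94 and Lap3 at -0.82. In a list of other glutathione-related genes 6 of 16 tested fell and 4 rose, with the zeta-class transferase Gstz1 at -1.04 and the esterase gene Esd at -0.81. Not all genes of this list are glutathione enzymes, since Eef1g, Vars and Mars1 act in translation. Those that rose were Alox5ap (1.21), Chac1 (1.03), Clic1 (0.52) and Eef1g (0.33). These counts were moved by scaling. With the acute phase genes left out of the total, the background was 11.3% lower and 53.2% higher. The thioredoxin list then had 5 lower and 5 higher, and the list of other glutathione-related genes 4 lower and 8 higher.

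**Figure D5:**
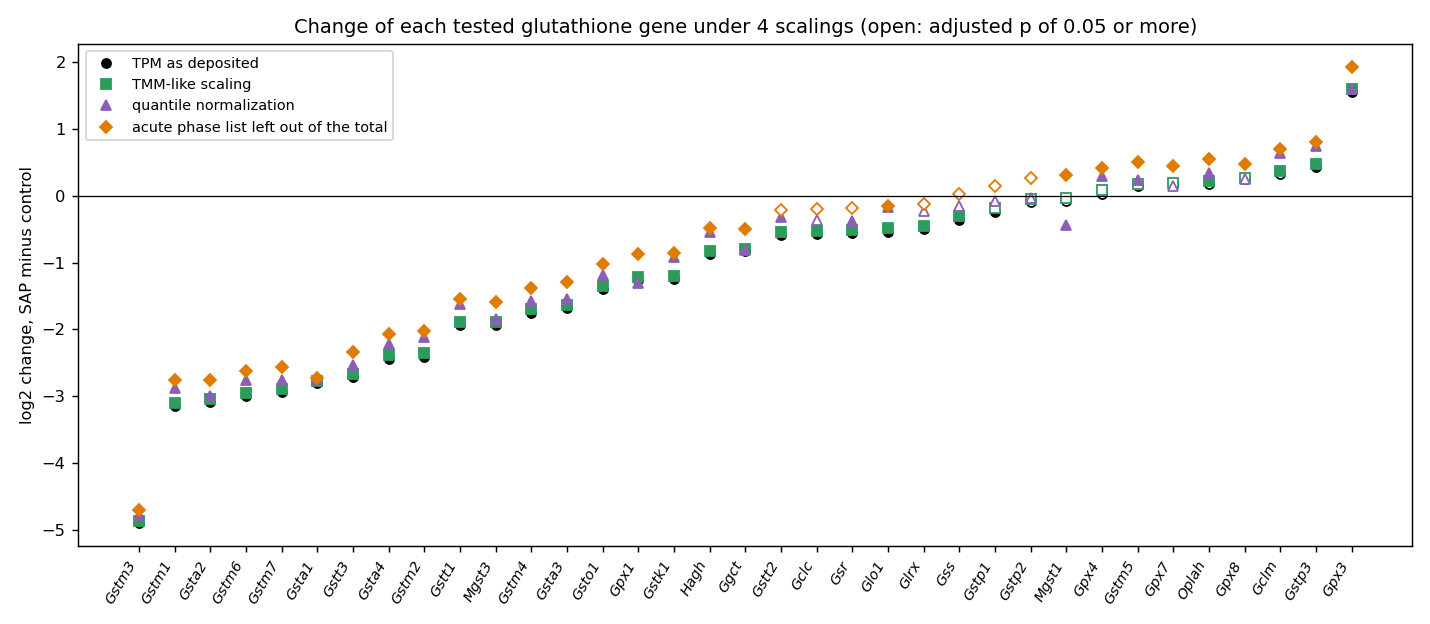
Log2 change of the 35 tested glutathione genes, SAP minus control, under 4 scalings of the libraries, ordered by the value from TPM as deposited, with open symbols for an adjusted p of 0.05 or more. Genes on the left keep their fall under all 4, while those near 0, among them Gstp1, Gss and Mgst1, change sign when the acute phase genes are left out of the total.

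SAP 14 had the lowest value of the 6 SAP libraries in 19 of the 25 glutathione genes that fell, and in 71.6% of the 2807 other genes that fell. Without SAP 14 the same number of glutathione genes, 25, fell and 3 rose, beside 2594 lower and 2389 higher of all 11235 genes tested. With the Xist split as a term 24 fell and 3 rose, beside 2197 lower and 2324 higher of all 11335 genes tested. In the 7 high-Xist libraries alone (5 control, 2 SAP) 34 glutathione genes were tested, of which 24 fell and 4 rose. There 1847 of all 11295 genes tested were lower and 1930 higher.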

How the data were processed

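Liver RNA-seq values of 12 libraries, 6 control and 6 SAP, were taken from 1 table of 55487 rows deposited by the authors. The unit was read as TPM: per the labels and headers no unit is named, but each deposited library sums to between 993412 and 995793. The submitters' processing notes name edgeR, with no version or role; no source used here states the aligner, build, annotation or strand handling. Since TPM carry no depth, sequencing depth is unknown and counting intervals are not given.

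Where rows shared a symbol (120 rows) the row with the highest median was kept; 0 of the 39 genes were affected. Genes reaching 1 TPM in 6 or more of the 12 libraries were fitted with limma 3.58.1 (R 4.3.3) on log2(TPM + 1), with trend, group as the only term and Benjamini-Hochberg adjustment over all 11335 genes tested. This scale understates changes of low genes. The 8 gene pairs were compared by exact permutation tests (scipy 1.17.1), where the smallest possible p is 0.00216. Figures used matplotlib 3.10.9, and transcripts were aligned with biopython 1.88. Genes given in full have the largest rise or fall of their class or are among the 12 highest means, others being given by range; from each of 7 pathway lists the 2 genes with the smallest adjusted p are named. The members, lists, pairs and tests were chosen with earlier results of these data known. The fit was tested on simulated data that had the spread of the controls in both groups. It recovered 33 of 67 changes of 0.5, 63 of 67 of 1.0 and 65 of 66 of 2.0 on the log2 scale. Of 170 calls 9 were false. Changes of 0.5 or less can thus be missed. Alternatives were 23 planned settings of the fit and 2 added after seeing the data (the high-Xist libraries alone, and the Xist term together with the acute phase genes left out).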

Additional observations from a re-analysis of the deposited data

Results flagged for a closer look

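Within groups of 6 libraries, the highest or lowest value was checked for a gap to its neighbour that is large against the whole range, in 86 groups of values; chance alone gives about 1 in 20, and 5 were found. Gsta1 reached 17.5 TPM in control 8, against 9.80 TPM in the next control. Gclm was at 87.8 TPM in SAP 14, against 144 TPM in the next lowest SAP library. Oplah was at 30.7 TPM in control 5, against 37.9 TPM in the next lowest control. The log2 ratio of Gclc to Gclm was -1.04 in SAP 15 and at most -1.46 in the other SAP libraries, and the log2 ratio of Gclc to Gss was -0.68 in SAP 14 against 0.13 in the next lowest.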

How the results depend on the processing

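Of the 35 tested genes, 20 kept their call under all 25 alternatives that tested them, 18 of these among the 25 that fell. The genes higher over the whole table numbered 2212, and 6028 with the acute phase genes left out of the total or 6287 with the Xist term added to that; the genes lower numbered 2832, and 1276 and 1087 under these settings and 1847 in the high-Xist libraries alone. Glutathione genes that rose numbered 2, and 4 with TMM-like scaling, 6 with quantile normalization, 9 with the acute phase genes left out, 8 with the Xist term added to that and 4 in the high-Xist libraries alone. Leaving out each library gave 1898 to 2389 genes higher and 2496 to 3042 lower over the whole table, and 2 to 3 and 25 to 25 among the glutathione genes. Signs turned for Gstp1 (0.15, and 0.09 with the Xist term), Mgst1 (0.31 and 0.32), Gss (0.03 and 0.04) and Gstp2, which was past the threshold in no setting (0.26 and 0.24), with the acute phase genes left out, by construction of a smaller total; other causes were not tested. Gstp2 also turned without SAP 12 (0.22) or SAP 15 (0.14), and Gpx7, not past the threshold, was at -0.02 in the high-Xist libraries alone. Nfe2l2 was at 0.04 (limma adjusted p = 0.782) with the Xist term and the acute phase genes left out. Chac2 lost its call there (-0.28, limma adjusted p = 0.114). Calls were compared across the alternatives for 22 genes of the pathway lists, and the other 20 kept theirs. Slc6a9, Csad, Clic1 and Eef1g were not among these 22. The Glo1 to Hagh difference was 0.27 to 0.39 when each library was left out, and 0.29 (adjusted p = 0.0952) without SAP 14 and control 5. The other 7 gene pairs kept their side of the threshold under every alternative run. No paired analysis was possible because the groups share no replicate number. Alternatives for counts were not run on TPM. The depth is unknown, so values near 1 TPM, such as Gstm3 and Gsta1 in SAP, are of unknown precision.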

Other observations

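Gstp2 was low in libraries of both groups, at 6.02 TPM in control 5, 3.35 TPM in SAP 12 and 4.82 TPM in SAP 15, and at 10.0 to 24.7 TPM in the other 9. Of these 3 libraries, control 5 (10.2 TPM of Xist) and SAP 15 (9.56 TPM) were on the low side of the Xist split, and SAP 12 (60.7 TPM) was not. A link between Gstp2 and the split was not tested. Gstp1 in the same 3 libraries was at 889, 679 and 775 TPM.

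A pair of genes from the list of other glutathione-related genes rose from low levels. Alox5ap, which presents arachidonic acid to lipoxygenase in myeloid cells, was at 1.54 ± 0.540 TPM in controls and 4.92 ± 1.41 TPM in SAP (mean ± SD of 6; log2 change 1.21, limma adjusted p = 9.07e-05), beside neutrophil markers that summed to 5.45 to 21.4 TPM and 37.6 to 113 TPM; their part in the result was not tested. Chac1, which degrades glutathione inside cells and is known as a target of the integrated stress response, was at 1.21 ± 0.347 TPM and 3.68 ± 1.46 TPM (log2 change 1.03, limma adjusted p = 0.00113). Its relative Chac2 fell, from 24.7 ± 1.92 to 15.3 ± 4.07 TPM (-0.70, limma adjusted p = 0.00233). These genes were chosen after their values were seen.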
